A study of Mus musculus with 2 samples.

Results

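The contacts described here are long chromatin contacts of hair matrix keratinocytes, the pairs of 5 kb bins on 1 chromosome whose starts lie at least 200 kb and less than 500 kb apart and that were listed as enriched by Hi-C. They were chosen by that span alone. They made up 878 of 4872 enriched pixels in the Tet2/3 DKO list (18%, 95% interval 17.0 to 19.1) and 1257 of 5811 in the WT list (21.6%, 20.6 to 22.7), or 2135 of 10683 pixels in all. Joined where both ends lay within 20 kb, the pixels formed 512 of 2641 loops in the DKO list and 673 of 2902 in the WT list. Each loop is given by its pixel of highest contact count.

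The cells were sorted primary keratinocytes of mice at postnatal day 4.5. The Tet2/3 DKO mice (DKO below) are labelled as knockouts of Tet2 and Tet3 with Krt14-Cre, and the WT mice are labelled WT with nothing more on their alleles. Krt14-Cre acts in keratinocytes that express Krt14 and in their descendants, and the number of animals pooled is not given in the sources used here. There was 1 Hi-C library per genotype. Genotype and library therefore cannot be told apart, no value has a replicate error, and no test between genotypes was possible. Contacts do not measure transcripts, so neither the cell type nor the deletion could be checked against its marker genes. Tet2, Tet3 and Krt14 lay at no contact of this span in either list.

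Chromatin loops bring distant DNA together. Many form where cohesin extrudes chromatin until it meets CTCF bound at convergent motifs, and others join enhancers with promoters. TET2 and TET3 oxidise 5-methylcytosine, a step of DNA demethylation that occurs at enhancers, and CTCF binds some of its sites less well when they are methylated. The hair matrix is the dividing epithelium at the base of the follicle, which takes positional and WNT, BMP, NOTCH and hedgehog signals and whose daughter cells form the shaft and the inner root sheath around it.

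Promoters in the anchor bins are shown first, since theirs were the only anchor sequences available. RefSeq promoter windows of GRCm38.p6, from 250 bases before to 50 bases after a gene's start, were available for 79.8% of 21896 protein-coding genes. A window with its start inside an anchor bin of a loop was found for 125 promoters in the DKO list and 167 in the WT list, and 49 promoters of 46 genes were in both. The letters CCAGNNGGC, which cover some forms of the CTCF core motif and were searched on both strands, occurred in 12% of the DKO windows (6.87 to 19) and 9.58% of the WT windows (5.58 to 15.1), against 9.94% of all 21237 windows of that length. Among the 49 promoters of both lists, 4 held these letters (8.16%), and in all 4 they read on the strand of the gene. These were Snrpe, a core protein of spliceosomal particles (chr1:133610231-133610530, minus strand), Gprc5b, an orphan receptor (chr7:118995162-118995461, minus strand), Ttc12, a factor of dynein arm assembly (chr9:49486176-49486475, minus strand), and 9330182O14Rik (chr15:40134115-40134414, plus strand). A longer CTCF consensus, searched after the sequences had been seen, occurred in 1 of the DKO windows (0.8%), 1 of the WT windows (0.599%) and 0.443% of all windows. Both finds are the window of Cebpb. Beside the 4 windows stand 3 without a match to the 9 letters that lay at contacts of both lists, those of Cebpb, a leucine zipper transcription factor of keratinocyte differentiation (chr2:167688665-167688964, plus strand), Mycn, a MYC family factor of growth (chr12:12941787-12942086, minus strand), and Vegfa, the growth factor of blood vessels (chr17:46032328-46032627, minus strand). Each is printed 5′ to 3′ along the gene's strand, with matches to the 9 letters, and in Cebpb the match to the longer consensus, in capitals.
Snrpe: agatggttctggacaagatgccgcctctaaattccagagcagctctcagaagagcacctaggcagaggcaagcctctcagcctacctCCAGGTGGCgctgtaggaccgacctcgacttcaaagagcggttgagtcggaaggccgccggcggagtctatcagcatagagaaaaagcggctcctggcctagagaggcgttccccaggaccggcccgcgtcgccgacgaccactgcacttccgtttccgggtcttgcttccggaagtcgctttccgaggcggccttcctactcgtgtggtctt
Gprc5b: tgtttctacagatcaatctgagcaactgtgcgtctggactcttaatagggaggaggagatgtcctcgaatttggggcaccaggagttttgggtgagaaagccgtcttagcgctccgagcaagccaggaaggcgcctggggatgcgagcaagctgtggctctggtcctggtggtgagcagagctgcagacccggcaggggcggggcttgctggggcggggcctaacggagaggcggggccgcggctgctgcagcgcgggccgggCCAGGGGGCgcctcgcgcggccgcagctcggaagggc
Ttc12: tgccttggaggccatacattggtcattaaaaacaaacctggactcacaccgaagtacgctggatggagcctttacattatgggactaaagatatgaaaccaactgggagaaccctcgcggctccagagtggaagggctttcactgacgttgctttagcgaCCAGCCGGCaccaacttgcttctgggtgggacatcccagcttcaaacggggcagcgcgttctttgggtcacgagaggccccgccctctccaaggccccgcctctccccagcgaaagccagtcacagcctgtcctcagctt
9330182O14Rik: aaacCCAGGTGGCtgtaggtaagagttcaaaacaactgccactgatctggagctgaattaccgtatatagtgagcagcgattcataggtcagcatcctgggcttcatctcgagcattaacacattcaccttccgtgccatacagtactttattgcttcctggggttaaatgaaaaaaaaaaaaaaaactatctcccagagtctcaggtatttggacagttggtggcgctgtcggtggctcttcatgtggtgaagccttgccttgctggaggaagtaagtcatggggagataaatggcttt
Cebpb: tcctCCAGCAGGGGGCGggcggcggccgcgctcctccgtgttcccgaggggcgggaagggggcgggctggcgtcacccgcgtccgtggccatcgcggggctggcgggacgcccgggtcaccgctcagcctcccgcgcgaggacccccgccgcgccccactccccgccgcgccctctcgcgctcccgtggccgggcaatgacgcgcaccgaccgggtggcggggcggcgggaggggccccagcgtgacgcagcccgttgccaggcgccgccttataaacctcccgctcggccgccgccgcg
Mycn: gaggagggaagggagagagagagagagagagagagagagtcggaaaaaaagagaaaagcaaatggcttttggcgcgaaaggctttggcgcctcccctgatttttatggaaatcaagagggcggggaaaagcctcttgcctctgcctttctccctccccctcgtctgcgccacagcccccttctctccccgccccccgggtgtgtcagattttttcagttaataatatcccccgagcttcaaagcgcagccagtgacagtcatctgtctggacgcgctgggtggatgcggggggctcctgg
Vegfa: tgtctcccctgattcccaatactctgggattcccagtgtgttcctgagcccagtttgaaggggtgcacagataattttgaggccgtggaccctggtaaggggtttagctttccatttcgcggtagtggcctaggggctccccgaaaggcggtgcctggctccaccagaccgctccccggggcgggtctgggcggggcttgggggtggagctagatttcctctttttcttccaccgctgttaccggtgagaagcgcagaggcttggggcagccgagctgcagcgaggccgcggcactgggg

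Counted in bases from the gene's start, the match began at -163 in Snrpe, at -90 in Ttc12, at -246 in 9330182O14Rik, at 13 in Gprc5b and, for the longer consensus, at -246 in Cebpb. The Gprc5b promoter sat at a 235 kb contact of 25 observed contacts in DKO and 28 in WT, at 7.77 times expected in DKO (5.03 to 11.5) and 8.03 times in WT (5.34 to 11.6). The Snrpe promoter sat at the far end of the Sox13 contact given further on. The Ttc12 promoter sat at a 405 kb contact of 11 observed contacts in DKO and 12 in WT, at 7.19 and 8.51 times expected. The 9330182O14Rik promoter sat at a contact of 14 in DKO and 26 in WT. These were different pixels, at 5.68 times expected in DKO (3.10 to 9.53) and 11.4 times in WT (7.44 to 16.7). Their intervals overlap but do not compare the same bins. The Vegfa promoter, with a match to neither, sat at a 300 kb contact of 21 in DKO and 28 in WT, at 6.36 and 6.49 times expected. The promoters were rich in G and C: the median was 60.3% in the DKO list and 61.0% in the WT list, against 56.3% over all windows, with a median of 20 and 19 CpG dinucleotides against 13. They did not exceed the promoters at contacts of 50 kb to under 200 kb, where the median was 62% in DKO and 62.7% in WT, with 22 CpG dinucleotides in each, and where 12.7% of DKO windows and 13.6% of WT windows held the 9 letters. The Cebpb window had 80.7% G and C and 50 CpG dinucleotides. Promoters pointed into the loop about as often as out of it, 66 inward and 59 outward in DKO (52.8% inward, 43.7 to 61.8) and 87 inward and 80 outward in WT (52.1%, 44.2 to 59.9). A motif match is a match of letters, and CTCF binding was not measured.

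The DKO list held fewer of these long contacts than the WT list, at 0.698 of the WT number of pixels (0.640 to 0.762) and 0.761 of the WT number of loops (0.677 to 0.855). Intervals on counts are exact and cover counting error only. The shortfall was found in each part of the range. From 200 kb to under 250 kb there were 179 loops in DKO and 241 in WT, up to 300 kb 107 in DKO and 146 in WT, up to 350 kb 104 in DKO and 120 in WT, up to 400 kb 51 in DKO and 74 in WT, and from 400 kb on 71 in DKO and 92 in WT. The ratios ran from 0.689 to 0.867. Those of loops from 300 kb to under 350 kb (0.867, 0.660 to 1.14) and from 400 kb on (0.772, 0.558 to 1.06) had intervals that include 1. Outside the range the pixel ratio was 1.08 under 50 kb (0.974 to 1.21), 0.851 from 50 kb to under 200 kb (0.812 to 0.893) and 0.667 from 500 kb (0.528 to 0.840). As listed, the interval of the long contacts lay below that of contacts of 50 kb to under 200 kb, but this order depended on the limits. At a false discovery rate under 0.01 the ratio was 0.814 for the long contacts (0.714 to 0.928) and 0.785 for the shorter class (0.730 to 0.844), and with at least 20 contacts it was 0.685 (0.566 to 0.828) and 0.783 (0.727 to 0.844), intervals that overlap in both cases.

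Sorted by contact count as listed, the gap was widest among the faintest pixels, where the limits of the lists differed. With 10 to 12 observed contacts there were 69 pixels in DKO and 207 in WT (ratio 0.333, 0.25 to 0.440). At 13 to 15 contacts DKO had 303 and WT 430 (0.705, 0.606 to 0.818), and at 16 to 19 contacts DKO had 319 and WT 347 (0.919, 0.787 to 1.07). Above that the ratio was lower again, with 131 pixels in DKO and 197 in WT at 20 to 24 contacts (0.665, 0.529 to 0.834) and 56 in DKO and 76 in WT at 25 or more (0.737, 0.512 to 1.05). The lists were also called with slightly different lower limits. In 2 classes of horizontal expected counts and 1 class of vertical ones the lowest listed count was 1 contact higher in DKO than in WT, and 22, 65 and 74 WT pixels of this span lay under the DKO limit in those classes. All of these had 11 or 12 contacts and fall among the pixels of 10 to 12 contacts. The ratio of 0.333 therefore compares unlike limits. With the higher limit applied to both lists, 878 DKO and 1140 WT pixels remained, a ratio of 0.770 (0.704 to 0.842), against 0.884 (0.842 to 0.928) for pixels from 50 kb to under 200 kb. Every long WT pixel so removed had 10 to 12 contacts, and no long DKO pixel was removed. With WT contacts also thinned to the DKO depth the expected ratio was 0.846 for the long pixels and 1.001 for that shorter class. The thinning took listed WT pixels alone and held the limits fixed. It can remove WT pixels but add none, so a rise of both ratios was fixed in advance. These values therefore cannot measure the part that depth plays. The share of the difference due to depth or to calling limits was not tested beyond these recounts.

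**Figure D1:**
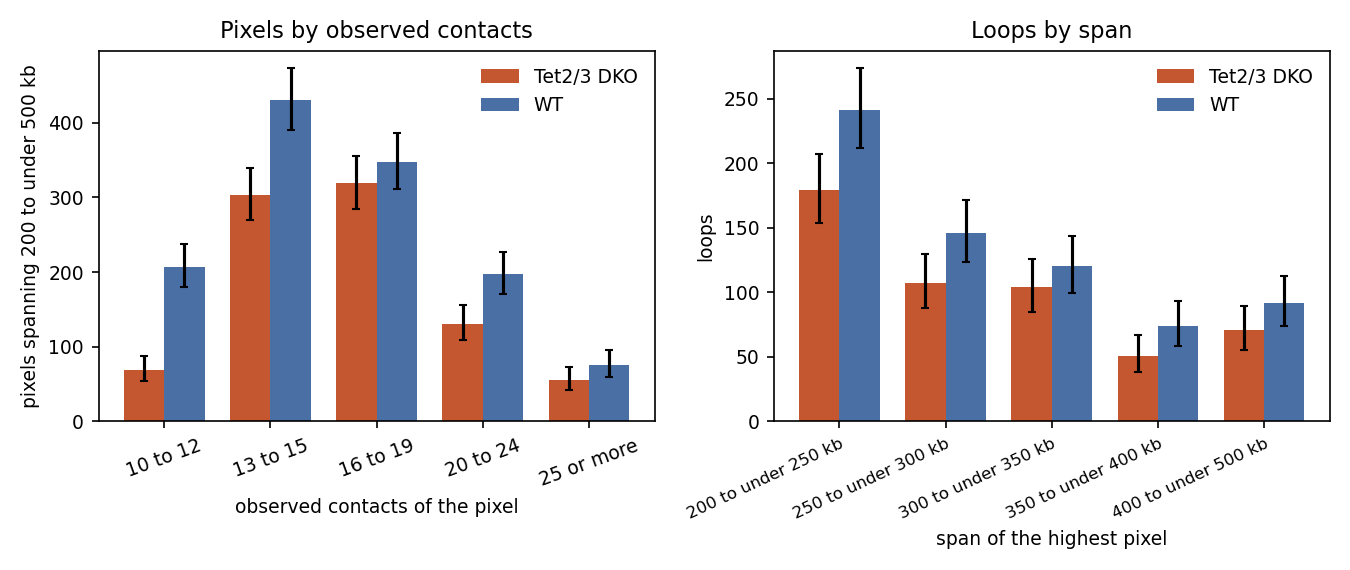
Number of enriched pixels by observed contacts (left) and number of loops by span of their highest pixel (right), DKO beside WT; bars start at 0 and error bars are exact 95% Poisson intervals of counting. The 69 DKO pixels against 207 WT pixels at 10 to 12 contacts are the widest gap as listed, in a class where the lower limits of the lists differed. The DKO bar is the lower one in every class drawn.

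Enrichment, the observed count over the count expected from the donut of surrounding pixels, was nearly equal in the lists. The median pixel was 6.29 times expected in DKO (quartiles 5.34 and 7.49) and 6.17 times in WT (5.36 and 7.46), from a median of 16 observed contacts in DKO and 15 in WT on 2.68 and 2.54 expected. The median loop was at 6.72 times expected in both lists. Both lists hold only pixels that passed nearly the same calling limits, so this likeness is partly fixed by the calling too. Enrichment followed span in both, with pixel medians of 3.43 in DKO and 3.42 in WT under 50 kb, 4.87 and 4.94 from 50 kb to under 200 kb, and 7.44 and 7.63 from 500 kb. Expected counts fall with span while a listed pixel needs at least 10 contacts, so a longer listed pixel must be more enriched, and this order is partly fixed by the calling.

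The highest enrichments rested on expected counts under 1, as 4 DKO and 5 WT pixels did. In DKO the Smok2a and Smok2b contact on chromosome 17 reached 25.3, with 16 contacts on 0.632 expected, and that of Flacc1, Gm28802 and Trak2 on chromosome 1 reached 24.7, with 14 contacts on 0.566. In WT a contact between Zfp985 and Zfp988 on chromosome 4 reached 76.3, with 16 contacts on 0.210, and the Smok2a and Smok2b contact reached 21.1, with 15 on 0.711. Smok2a and Smok2b are near-identical sperm motility kinase genes, and Zfp985 and Zfp988 belong to a cluster of related zinc finger genes, so reads there can map to more than 1 copy and these values are uncertain. The next highest lay at no gene end and had firmer counts, 34 contacts at 15.6 times expected in DKO on chromosome 9 (111495001 to 111915001) and 24 contacts at 18.8 times in WT on chromosome 6 (50805001 to 51165001), the start of each anchor bin being given. The other 4 of the 5 highest per list were at no gene end either, at 14.8 times expected on chromosome 17 and 14.1 times on chromosome 5 in DKO, and at 15.6 times on chromosome 13 and 14.6 times on chromosome 10 in WT. That on chromosome 17 had only 15 contacts on 1.01 expected. Its lower anchor (13470001 to 13475000) lay between the anchors of the Smok2a and Smok2b contact, so it is uncertain too.

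**Figure D2:**
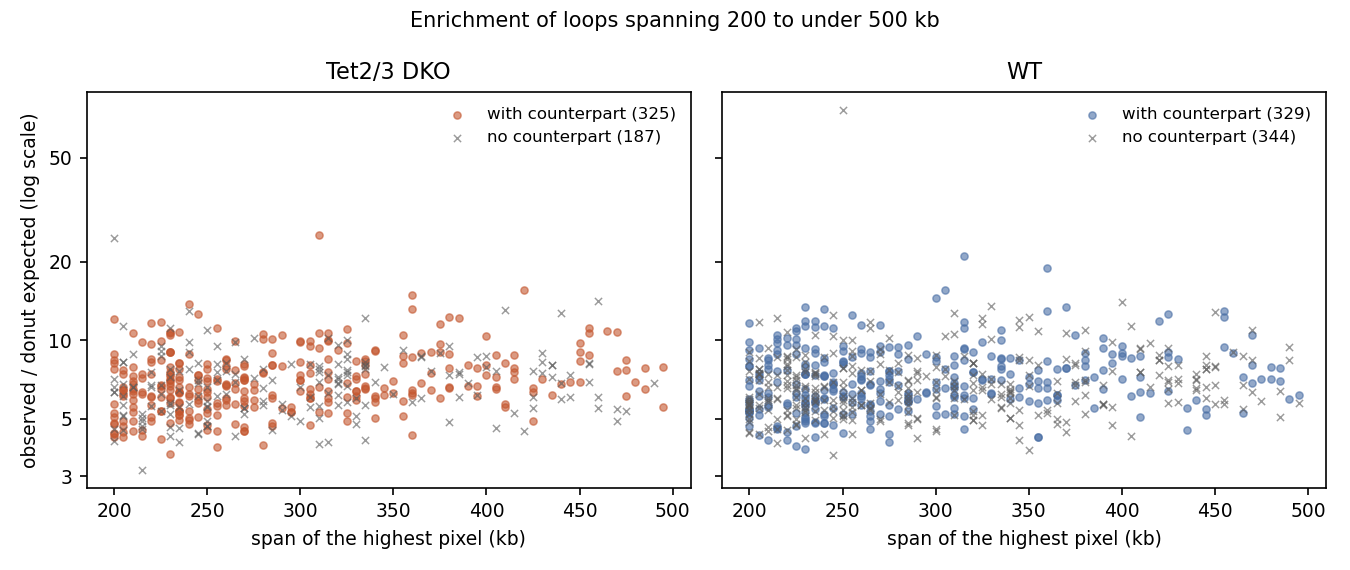
Enrichment of each loop at its highest pixel (observed over donut expected, log axis) against its span in kb, DKO left and WT right; dots are loops with a counterpart in the other list and crosses those with none. Nearly all loops of both kinds lie between 4 and 13 times expected at all spans, and the point at 76.3 in WT is the zinc finger contact on 0.210 expected contacts.

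As listed, most long contacts were solitary pixels. Several pixels made up 35.2% of DKO loops (31.0 to 39.5) and 42.9% of WT loops (39.2 to 46.8), with at most 9 pixels in DKO and 10 in WT. Without the 1-pixel loops whose 4 false discovery rates sum to over 0.02, loops of several pixels were the larger part, 55.2% in DKO (49.6 to 60.7) and 68.2% in WT (63.5 to 72.6). That filter removes 1-pixel loops alone, so it can only raise this share. A counterpart, a pixel of the other list within 10 kb at both ends, was found for 325 of 512 DKO loops (63.5%, 59.1 to 67.7) and for 329 of 673 WT loops (48.9%, 45.0 to 52.7). That left 187 DKO loops (36.5%) and 344 WT loops (51.1%) with none, while over loops of all spans 45% of DKO loops and 49.9% of WT loops had none. A WT list that is longer at this span offers a DKO loop more chances of a match, and the part of the share this sets was not tested.

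Loops without a counterpart had fewer contacts and fewer pixels, while their enrichment was close to that of the others, with medians of 6.80 in DKO and 6.59 in WT, against 6.72 and 6.91 for loops with a counterpart. The median count was 15 contacts in DKO and 14 in WT, against 18 and 19, and 11.2% of those without in DKO (7.09 to 16.7) and 21.8% in WT (17.6 to 26.5) had several pixels, against 48.9% in DKO and 65.0% in WT of the loops with one. At 12 contacts or fewer there were 26 such loops in DKO and 98 in WT. A loop of many pixels can match at any of them, which favours the larger ones. Most were not near misses: no pixel of the other list lay within 100 kb at both ends for 137 of 187 in DKO (73.3%) and 276 of 344 in WT (80.2%), and 10 in each list had the nearest more than 10 and up to 25 kb away. Neither anchor lay within 10 kb of any anchor of the other list for 95 DKO loops (50.8%) and 201 WT loops (58.4%).

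A match was sought within 10 kb, so the offsets of matched loops are bounded by that rule and by the size of the loops. Matching gave 319 pairs with both highest pixels in the range, of which 134 had the same highest pixel (42.0%), 139 were 5 kb apart, 32 were 10 kb apart and 14 more than that, up to 25 kb. Enrichment was higher in DKO in 143 of the 319 pairs, with medians of 6.72 in DKO and 6.91 in WT. The DKO loop had more pixels in 62 pairs, the WT loop in 133, and 124 were equal, for 644 pixels in DKO and 775 in WT. At least 1 gene end lay at 210 of the pairs.

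The same pixel was listed in both libraries 357 times, which was 40.7% of DKO pixels and 28.4% of WT pixels. Enrichment at these pixels was nearly equal, with a median DKO over WT ratio of -0.02 on the log2 scale (quartiles -0.26 and 0.22, SD over pixels 0.37). It was over 1.5-fold higher in DKO at 19 pixels (5.32%) and over 1.5-fold lower at 19 (5.32%), against 3.56% higher and 5.26% lower over the pixels of all spans in both lists. The counting interval of the ratio left out 1 at 6 pixels, 2 higher and 4 lower in DKO. Spearman's rho between the libraries over the 357 pixels was 0.556, a description of pixels that share their libraries. Expected counts at these pixels were at 0.978 of WT in DKO (quartiles 0.897 and 1.05). Only pixels called in both libraries enter these figures, which leaves out any that fell below the calling limit in 1 of them.

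**Figure D3:**
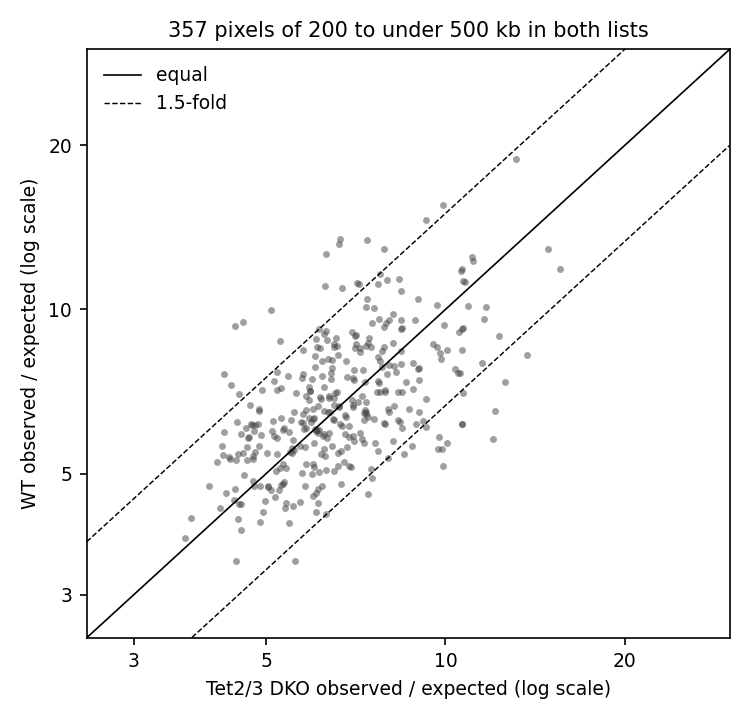
Enrichment in DKO (horizontal, log axis) against WT (vertical, log axis) at the 357 pixels listed in both libraries; the solid line is equality and the dashed lines are 1.5-fold. The cloud lies on the line of equality with 19 pixels beyond each dashed line.

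Among the 88 such pixels with at least 20 contacts in each library, the lowest DKO over WT ratio was at Srp9, which encodes a subunit of the signal recognition particle. Its contact on chromosome 1 (181885001 to 181890000 with 182115001 to 182120000) had 22 contacts in DKO and 43 in WT, at 6.64 times expected in DKO and 13.4 times in WT, a ratio of 0.494 (0.281 to 0.844). The next were at Bin3 and Ccar2 (0.560, 0.302 to 1.01), at Ddx25, Gm1113 and Rpusd4 (0.603, 0.331 to 1.07), at Wnt7b (0.635, 0.376 to 1.06) and at Rxra and Wdr5 (0.707, 0.410 to 1.20). Rxra encodes a retinoid X receptor and Wdr5 a subunit of histone methyltransferase complexes. The highest ratios were at Ccnd1 and LTO1 (1.61, 0.894 to 2.97), at Cebpb (1.57, 0.923 to 2.71) and at Marchf10, Mrc2 and Tanc2 (1.53, 0.818 to 2.91), followed by contacts at no gene end on chromosome 8 (1.37) and chromosome 13 (1.35). Of these 10 the interval of Srp9 alone leaves out 1. These are the extremes of 88 pixels, and no replicate shows whether they recur. The Ccnd1 and Cebpb pixels were not the highest of their loops. The highest Ccnd1 pixel, the same in both lists, differed less, as given further on. At Cebpb the highest pixels of the lists were different bins, as given next.

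The contact at Cebpb had the most observed contacts, summed over the libraries, of the loops listed in both at a gene end. It joined Cebpb on chromosome 2 with a bin at no gene end (167895001 to 167900000), 210 kb from the gene's own bin in DKO and 215 kb from the bin beside it in WT. Its highest pixels, in different bins, had 58 contacts in DKO and 59 in WT. They were at 10.6 times expected in DKO (8.09 to 13.8) and 10.1 times in WT (7.71 to 13.1). At the WT pixel DKO had 37 contacts, at 7.35 times expected, a DKO over WT ratio of 0.726 (0.468 to 1.11). Pixels of this loop thus differed in both directions. The loop held 6 pixels in DKO and 10 in WT. The contact of 415 kb at Frmd6, which encodes a FERM domain protein, had 43 contacts in DKO and 35 in WT, at 7.58 and 6.29 times expected. The loop at Nedd9, an adhesion scaffold, and Smim13 had its highest pixel at 290 kb in DKO and at 270 kb in WT. These different pixels had 38 contacts in DKO and 29 in WT, at 7.92 and 6.26 times expected. A pixel of 295 kb there, listed in both, had 19 in DKO and 22 in WT, at 4.22 and 5.61 times expected. The contact at Ptgs1, a cyclooxygenase gene, had 29 in DKO and 32 in WT, at 8.41 and 7.96 times expected. The other 6 of the 10 with the most contacts were those at Ccnd1, Cdkn1c, Wnt7b, Srp9, Ddx25 and Rxra. They had the same highest pixel in both lists, as had those at Frmd6 and Ptgs1.

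Cell cycle genes were at long contacts for 5 of 36 listed genes, 4 of them in both lists and 1 in DKO alone, where 3.66% of all protein-coding genes lay at a long contact in either list, 1.27% in both, 0.872% in DKO alone and 1.52% in WT alone. Ccnd1, which encodes a D-type cyclin, lay at a loop on chromosome 7 whose pixels together also reached LTO1. At its highest pixel the bin 144935001 to 144940000 contacted a bin 305 kb away. That pixel had 33 contacts in DKO and 41 in WT, at 6.0 times expected in DKO (4.13 to 8.42) and 6.56 times in WT (4.71 to 8.90). Cdkn1c, an imprinted inhibitor of cyclin-dependent kinases, lay with Slc22a18 at a contact of 315 kb with 31 contacts in DKO and 41 in WT, at 10.6 times expected in DKO (7.21 to 15.1) and 11.8 times in WT (8.46 to 16). Ccnd2, a related cyclin, had 22 contacts in DKO and 25 in WT over 210 and 215 kb, at 5.30 and 4.57 times expected. Mycn had 14 in DKO and 15 in WT over 270 kb, and WT alone had a further contact of 310 kb there with 14 contacts. Mcm6, a subunit of the replicative helicase, was at a contact of 465 kb in DKO with 21 contacts at 10.8 times expected. The WT loop that matched it, with 19 contacts at 8.96 times, did not come within 5 kb of an end of Mcm6.

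WNT pathway genes were at long contacts for 4 of 36 listed genes, with Wnt7b in both lists, Dkk1 and Axin2 in DKO alone and Ctnnb1 in WT alone. Wnt7b, a WNT ligand expressed in hair follicle epithelium, lay in an anchor bin on chromosome 15 (85580001 to 85585000) that was 1 of 2 WT bins with 3 long loops. In DKO it carried 2 of them. The 315 kb contact had 27 contacts in DKO and 41 in WT, at 7.10 times expected in DKO (4.68 to 10.3) and 11.2 times in WT (8.02 to 15.2). The 270 kb contact had 19 in DKO and 17 in WT, at 5.84 and 5.21 times expected. The 430 kb contact was listed in WT alone, with 18 contacts at 8.03 times expected (4.76 to 12.7). Axin2, a WNT target that feeds back on the pathway, lay at a contact with 13 contacts in DKO, and its WT counterpart of 12 contacts was anchored 5 kb further on, out of reach of the gene's end. Dkk1, a secreted WNT inhibitor, was a solitary pixel in DKO and Ctnnb1, which encodes β-catenin, a solitary pixel in WT.

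Hair and epidermal transcription factors were at long contacts for 5 of 41 listed genes, Msx1 and Tfap2c in both lists and Msx2, Nfatc1 and Bcl11b in WT alone. Msx1, a homeobox factor, had a 270 kb contact with 15 contacts in DKO and 17 in WT, at 4.66 and 5.82 times expected. Tfap2c, which encodes an AP-2 factor of epidermal development, had 19 in DKO and 15 in WT, at 6.72 times expected in DKO (4.05 to 10.5) and 3.92 times in WT (2.20 to 6.47). Those pixels lay 10 kb apart, so their values do not compare the same bins. Msx2, a homeobox factor of the hair matrix, had a WT loop of 225 kb with 2 pixels and 22 contacts at 6.05 times expected (3.79 to 9.16) and no counterpart in DKO. Bcl11b, a zinc finger factor of skin development, had a WT pixel of 15 contacts at 8.13 times expected and no counterpart. The loop at Nfatc1, a factor of follicle stem cells, was present in both lists, with highest pixels 5 kb apart. These had 26 contacts each, at 7.40 times expected in DKO (230 kb) and 11.3 times in WT (240 kb). At the WT pixel DKO had 18 contacts, at 7.97 times expected. The WT pixels of the loop came within 5 kb of the gene's end and the DKO pixels did not.

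Signalling genes of the BMP, hedgehog, NOTCH and FGF pathways were at 6 of 46 listed genes, with Fgfr1 and Hes1 in both lists, Jag1 in DKO alone and Bmp2, Gli3 and Hey2 in WT alone. Fgfr1, an FGF receptor, had 25 contacts in DKO and 24 in WT over 305 and 300 kb, at 6.20 and 5.59 times expected. Hes1, a repressor induced by NOTCH, had 15 in DKO over 340 kb and 20 in WT over 330 kb, at 5.04 and 6.23 times expected. At that WT pixel DKO had 14 contacts, at 4.46 times expected. A further DKO contact of 245 kb at Hes1 had 15 contacts. The other 4 were solitary pixels of 13 or 14 contacts. Jag1, a NOTCH ligand, was at 6.59 times expected in DKO. Bmp2, a BMP ligand, was at 6.73, Gli3, a transducer of hedgehog signals, at 6.09 and Hey2, a NOTCH target, at 8.69 times expected in WT.

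Homeobox cluster and developmental transcription factor genes were at long contacts for 17 of 100 listed genes, 11 in both lists, 2 in DKO alone and 4 in WT alone. Hox genes are 11 of the 17, and they are not independent, since neighbours in a cluster lie within 5 kb of the same bins and share contacts. A 250 kb contact of the Hoxb cluster on chromosome 11 (96300001 to 96305000 with 96550001 to 96555000) had 26 contacts in DKO and 25 in WT, at 4.51 and 4.39 times expected. In DKO its pixels reached Hoxb3 and every listed gene from Hoxb5 to Hoxb9. A pixel of 275 kb among them (96275001 to 96280000 at its lower end), had 22 contacts in DKO and 17 in WT, at 5.47 and 4.07 times expected. In WT the pixels of the 250 kb loop reached Hoxb3, Hoxb5 and Hoxb6, and the 275 kb pixel stood as a loop of its own and reached Hoxb8 and Hoxb9, so Hoxb7 counted in DKO alone. A 440 kb contact of the Hoxd cluster on chromosome 2 (74700001 to 74705000 with 75140001 to 75145000) had 20 in DKO and 15 in WT, at 6.77 and 5.91 times expected, and reached Hoxd3, Hoxd8, Hoxd9 and Hoxd10 in both lists and Hoxd4 in WT alone. Sox13 had 25 contacts in DKO and 29 in WT over 230 kb to the Snrpe bin, and Foxc2 18 in DKO and 24 in WT over 400 and 395 kb. Sox4 in DKO alone and Six2, Tbx2 and Snai2 in WT alone were solitary pixels of 11 to 16 contacts.

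Among the remaining lists, keratins were at 2 of 34 positions. Krt72, a keratin of the inner root sheath, had a contact of 200 kb with 19 contacts in DKO and 21 in WT, at 4.35 and 5.32 times expected, and Krt84, a keratin of the hair shaft, was reached in DKO alone by a pixel of 14 contacts that joins it to Krt72. Gadd45g, a stress-induced gene linked to DNA demethylation, was the 1 DNA methylation gene of 24, with 25 contacts in DKO and 29 in WT over 380 kb, at 6.54 and 7.03 times expected. None of 33 barrier and junction genes and none of 21 loop architecture genes lay at a contact of this span. At contacts of some span lay 14 and 7 of them, where 22.8% of all protein-coding genes did. Markers of other cells were at none either: 0 of 10 for melanocytes, 0 of 16 for dermal papilla and fibroblasts and 0 of 16 for endothelial, immune and nerve cells, of which 0, 6 and 3 lay at contacts of some span. With 3.66% of all genes at a long contact, lists this short can hold none, so these absences say nothing particular about their genes. Over all 12 lists 40 of 412 genes were at a long contact (9.71%), 22 in both lists, 7 in DKO alone and 11 in WT alone. The lists were picked for regulatory and tissue genes, so this share against 3.66% of all genes says nothing particular about them.

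**Figure D4:**
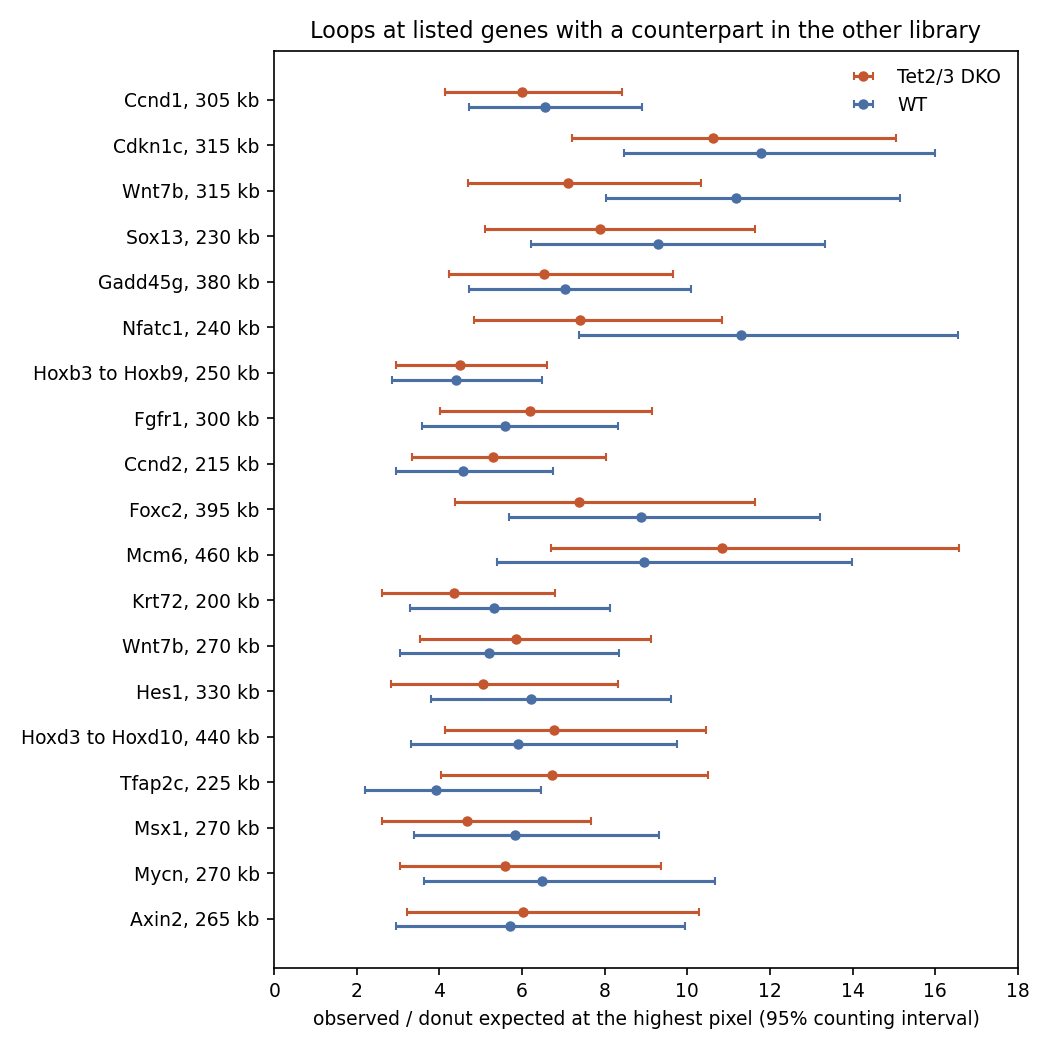
Enrichment at the highest pixel (observed over donut expected) of the loops at listed genes that have a counterpart in the other list, DKO above WT, with exact 95% Poisson intervals and the WT span beside the name. The highest pixel of a loop can differ between the lists. The intervals of DKO and WT overlap at every loop drawn; at Nfatc1 the WT loop alone, and at Mcm6 and Axin2 the DKO loop alone, lies within 5 kb of the gene's end.

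Loops without a counterpart that had at least 2 pixels and a gene end numbered 14 in DKO and 45 in WT, and the 10 of each list with the most contacts are given. In DKO they were led by Capn13, a calpain gene, with 26 contacts at 8.04 times expected (5.25 to 11.8), and by Lix1 and Riok2, a kinase gene of ribosome maturation, with 22 contacts at 9.5 times expected (5.95 to 14.4). Me3, a malic enzyme gene, and Prss23, a serine protease gene, stood at the 2 ends of a 340 kb loop with 20 contacts at 6.88 times expected. The other DKO loops were those of Rasgef1b with 19 contacts, of Cct4, Commd1, Fam161a and Zrsr1 with 18, of Zfp90 with 18, of Ivns1abp and Swt1 with 17, of Trp53inp1 with 17, of Alpk2 with 16, and of Nts, the neurotensin gene, with 15. None of these DKO genes is on the 12 gene lists, which hold 412 of 21896 protein-coding genes. In WT they were led by Pitpnc1 and Psmd12, a proteasome subunit gene, with 30 contacts at 7.66 times expected (5.17 to 10.9), and by Shroom3, an actin regulator of epithelial cell shape, with 29 at 6.46 times (4.33 to 9.28). Cd82, a tetraspanin gene, joined Trp53i11 and Tspan18 in a loop of 6 pixels with 25 contacts at 7.41 times expected. Cd40, a receptor gene of the TNF receptor family, and Zfp663 stood at the 2 ends of a loop with 24 contacts at 10.2 times expected. The other WT loops were those of Myl2, a myosin light chain gene, with 25 contacts, of Lrrc66 and Sgcb with 24, of Nemf, Sos2 and Vcpkmt with 23, of Crygs and Tbccd1 with 23, of Msx2 with 22, and of Spon1 with 22. The 10 WT loops had 22 to 30 contacts and the 10 DKO loops 15 to 26. Among the genes of these 20 loops Msx2 alone is on the gene lists. With lists that hold so small a part of all genes, this says nothing particular about the loops of either library. The lists hold no counts for uncalled pixels, so how far the other library fell short at these places is not known.

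Long contacts lay away from genes more often than shorter ones. A gene end stood at both anchors of 87 DKO loops (17.0%, 13.8 to 20.5) and 110 WT loops (16.3%, 13.6 to 19.4), against 34.7% in DKO and 33.4% in WT from 50 kb to under 200 kb. A gene end at neither anchor was found for 40.2% in DKO (36.0 to 44.6) and 42.2% in WT (38.4 to 46.0), against 25.6% in DKO and 24.3% in WT from 50 kb to under 200 kb. The intervals of the long and shorter loops did not overlap within either list, and the lists did not differ beyond their intervals. Counting a gene by its lower coordinate, the stretches between the anchors of long loops held 0.679 genes per 100 kb in DKO and 0.675 in WT, against 1.42 in DKO and 1.38 in WT from 50 kb to under 200 kb. No gene lay between the anchors of 13.5% of DKO loops and 15.8% of WT loops. The median was 1 gene in both lists, and the most was 20 in DKO and 18 in WT.

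**Figure D5:**
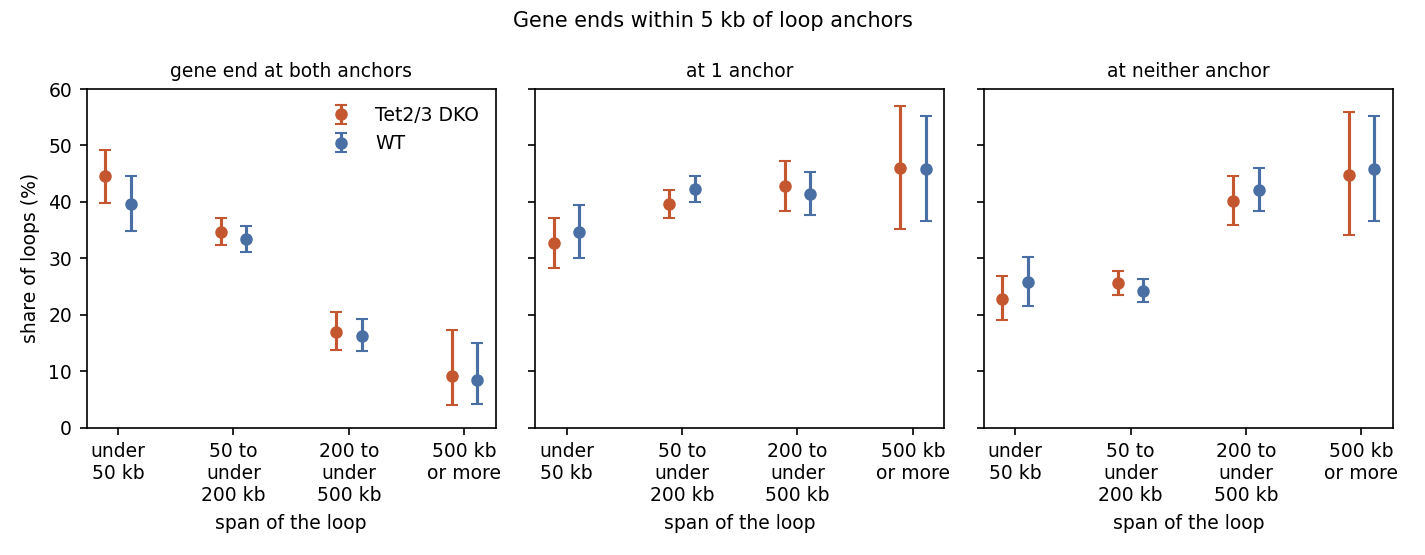
Share of loops with a protein-coding gene end within 5 kb at both anchors, at 1 anchor or at neither, by span class, DKO left of WT in each class, with exact 95% Clopper-Pearson intervals. At both anchors the share is 17.0% in DKO and 16.3% in WT for the long loops, under the 34.7% in DKO and 33.4% in WT of the next shorter class.

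Most anchors took part in a single long loop. Of 989 anchor bins in DKO 955 had 1 loop (96.6%), 33 had 2 and 1 had 3, and of 1308 in WT 1272 had 1 (97.2%), 34 had 2 and 2 had 3. The DKO bin with 3 lies at Ddias and Prcp on chromosome 7 (92870001 to 92875000), with loops of 310, 235 and 205 kb. The WT bins with 3 were that of Wnt7b and a bin at no gene end on chromosome 16 (95945001 to 95950000). An anchor of a loop under 200 kb lay within 10 kb of 25% of DKO loops (21.3 to 29.0) and 25.4% of WT loops (22.2 to 28.9), and at both anchors of 19 DKO and 32 WT loops. The shares were 15.4% in DKO and 13.2% in WT at a false discovery rate under 0.01, where fewer shorter loops are listed too, 14.4% and 12.6% with at least 20 contacts, and 12.9% and 14.4% in the same bin. A chain of 2 shorter loops bridged the same anchors for 7 long loops in DKO and 13 in WT. Another long loop enclosed 41 DKO loops and 55 WT loops.

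Long loops were found on every chromosome but Y. The DKO share of the loops of both lists was 43.2% (40.4 to 46.1) and ran from 31.4% on chromosome 14 (11 in DKO and 24 in WT; 16.9 to 49.3) to 51.2% on chromosome 7 (42 in DKO and 40 in WT; 39.9 to 62.4). The interval of each chromosome with loops took in 43.2%.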

How the data were processed

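Hi-C contacts of sorted hair matrix keratinocytes (postnatal day 4.5) were read from 1 list of enriched pixels per genotype. The lists come from juicer_tools 1.22.01, per the file headers, in the layout its HiCCUPS step has at 5 kb before merging, and the build was GRCm38 (mm10) with Juicer, per the submitters' processing notes. Per the file headers the authors deposited an observed count of contacts per pixel, not normalised, a signal of expected contacts from each of 4 neighbourhoods, and, as a score, the number of each expected-count class. All q-values (false discovery rates) deposited were under 0.1. Sequencing depth, aligner and read filters: not given in the sources used here. Pixels that were not called are not listed, so absence from a list is not absence of contact.

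Pixels whose bin starts differ by at least 200 kb and less than 500 kb were taken. Over the whole list, pixels were joined by single linkage where both ends lay within 20 kb, and the pixel of highest count stands for the loop. A counterpart is any pixel of the other list within 2 bins (10 kb) at both ends. Enrichment is the observed count over the donut expected count. A loop was said to lie at a gene where any of its anchor bins was at most 5 kb from an annotated end of a protein-coding gene (RefSeq, GRCm38.p6). Promoter windows came from a RefSeq table of the same build, in which chromosome 18 is not used here. Coordinates are 1-based. The relative depth is the median DKO over WT ratio of expected counts at pixels in both lists.

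All 95% intervals are exact: Clopper-Pearson ones for shares, Poisson ones for counts and conditional binomial ones for a ratio of 2 counts. They take in counting error only, hold expected counts fixed and treat neighbouring pixels as independent, which they are not. There was no test and no p-value, since each genotype has 1 library. The linkage and matching were tested on simulated data.

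The members and the 12 gene lists were chosen with earlier results of these data known. The genes named were up to 4 per list at long loops by contact count, the 10 loops with the most contacts that had a counterpart and a gene end, the 10 per list with none, at least 2 pixels and a gene end, the anchors with most loops, the 5 highest and 5 lowest DKO over WT enrichments among pixels with at least 20 contacts in each list, the 5 highest enrichments per list, Tet2, Tet3 and Krt14. Values were already known when the other list members and the promoters were picked. Alternatives changed the false discovery rate, minimum counts, span limits, linkage, matching, expected count, gene end distance and chromosomes. Python 3.11.15, numpy 2.4.6, pandas 2.3.3, scipy 1.17.1 and matplotlib 3.10.9 were used.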

Additional observations from a re-analysis of the deposited data

How the results depend on the processing

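Under 15 planned settings and 2 added after seeing the data, 101 values of 14 results were recomputed: 59 stayed within their counting interval, 41 moved beyond it and 1 reversed. No paired analysis was possible because there is only 1 library of each genotype, so leaving out replicates was impossible too.

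The pixel ratio moved to 0.814 at a false discovery rate under 0.01, to 0.770 with common lowest counts, and to 0.846 with WT contacts also thinned to the DKO depth (an expected number of 1038 WT pixels). The last 2 were chosen after seeing the data. It stayed under 1 throughout. The ratio of pixels from 50 kb to under 200 kb went to 1.001 with the thinned contacts. Thinning listed WT pixels at fixed limits can only raise these ratios.

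The share of DKO loops with a counterpart was 54.8% at the stricter rate and 44.7% with a match at the same pixel. That of WT loops was 43.4% with at least 20 contacts and 34.5% with a match at the same pixel.

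Median enrichment, DKO first, was 7.09 and 7.11 at the stricter rate, 6.77 and 6.70 with at least 20 contacts, 6.44 and 6.39 from 250 to 450 kb, 5.88 and 5.69 over the bottom-left expected count, and 4.46 and 4.36 over the highest of the 4 expected counts.

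Loops of several pixels were 30.5% in DKO and 35.0% in WT at the stricter rate, 30.4% and 34.9% with at least 20 contacts, and 55.2% and 68.2% without 1-pixel loops whose 4 rates sum to over 0.02. With linkage at 10 kb they were 39.1% in WT.

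A gene end at both anchors was found for 11.8% of DKO loops at the stricter rate, 13.6% with at least 20 contacts, 13.5% without the 1-pixel loops, 5.27% with gene ends inside the bin and 27.0% within 10 kb. In WT it was 6.09% inside the bin and 26.0% within 10 kb.

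An anchor of a shorter loop stood at 15.4% of DKO and 13.2% of WT loops at the stricter rate, 14.4% and 12.6% with at least 20 contacts, 16.3% and 16% without the 1-pixel loops, and 12.9% and 14.4% in the same bin. Stricter lists also hold fewer shorter loops. For the other values that moved, where the setting itself does not fix the shift, the cause was not tested.

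The lowest listed count of this span was 10 contacts in DKO and 11 in WT. A difference of 5 to 10 contacts at a single pixel lies within its counting interval in most cases. How far depth limits what is listed was not tested.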
